A study of Mus musculus with 4 samples.

Results

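The genes described here encode inhibitors that act on SMAD signalling from inside the cell or at its membrane. They are the inhibitory SMADs Smad6 and Smad7, the decoy receptor Bambi, the membrane-anchored SMAD inhibitor Pmepa1, the co-repressors Ski and Skil, the ubiquitin ligases Smurf1 and Smurf2, and Tob1. Every probe set was taken whose symbol in the platform annotation is exactly one of these 9 names. This gave 18 of the 45037 probe sets other than controls, and 16 of the 18 were bright enough to be tested. RNA came from E14Tg2A.4, a line of mouse embryonic stem cells that goes back to the Hprt-deficient line E14Tg2a, on 4 one-colour Affymetrix arrays. One group of 2 arrays came from cells given bone morphogenetic protein 2 (BMP-2), at 25 ng/ml and for 1 h. The other group of 2 arrays came from untreated cells. The labels name no other agent or allele. Whether the replicates were separate cultures is not stated, so the p-values reflect a spread that may be technical.

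BMP ligands bind type I and type II receptor kinases at the cell surface, and the receptors phosphorylate SMAD1 and SMAD5, which enter the nucleus with SMAD4 and act on target genes. In mouse embryonic stem cells the Id genes are well known targets of this pathway. Cells restrain it at several layers. Inhibitory SMADs block receptors and receptor-regulated SMADs, decoy receptors take part in inactive receptor complexes, co-repressors bind SMADs on DNA, and ubiquitin ligases mark SMADs and receptors for destruction. Several of these inhibitors are themselves known SMAD target genes, which makes them feedback inhibitors. Setting treated against untreated cells asks which of these layers had a different transcript level by 1 h.

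The values are MAS5 signals, a linear measure of brightness per probe set, and the level of one probe set is not compared with that of another. Median signals ran from 81.8 to 94.9 over the 4 arrays. Probe sets were tested when their mean log2 signal was above 5.73, a signal of 53.0, which left 27022. Differences are mean log2 signals of treated minus untreated arrays, with standard errors (SE), 95% intervals and adjusted p from limma over all 27022. The array of untreated replicate 2 stood apart in its 18S ribosomal RNA control probe sets, which read 3.94 to 6.11 times the highest of the other arrays. Values without that array stand beside the results below. The embryonic stem cell markers were present: all 10 of a list with Pou5f1, Nanog, Sox2 and Zfp42 were tested, and none passed. Of 10 fibroblast markers, looked at for feeder cells, 7 lay below the signal limit, Col1a1, Col3a1, Postn and Dcn among them. The summed signal of the 3 tested (Fn1, Thy1 and Col1a2) was 7522 and 7789 on treated arrays and 7580 and 7784 on untreated ones. Most of each sum was Fn1, which read 7101 to 7408, so the sum says little of the other genes. Thy1 read 210 and 214 on treated arrays and 239 and 233 on untreated ones. Col1a2 read 172 and 207 against 161 and 196.

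**Figure D1:**
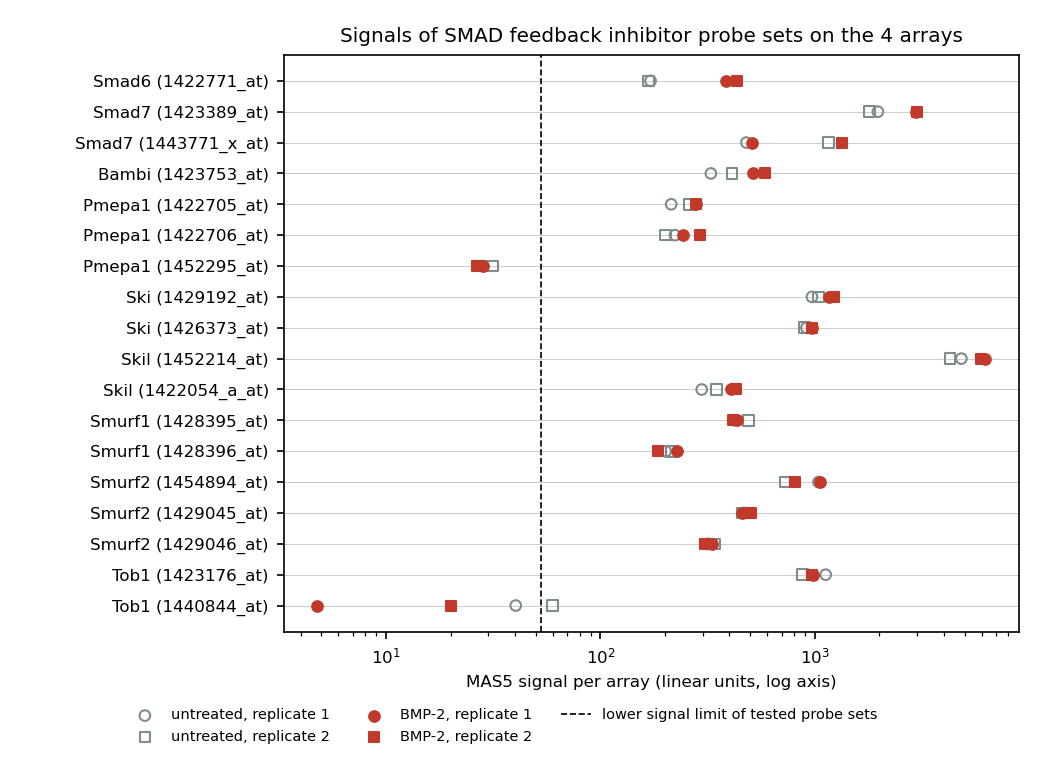
MAS5 signal (horizontal log axis, linear units) of each of the 18 probe sets on each array, with untreated arrays as open grey symbols and BMP-2 arrays as filled red ones; circles are replicate 1, squares replicate 2, and the dashed line is the limit of 53.0. The red symbols of Smad6, the brighter Smad7 probe set, Bambi and both Skil probe sets lie to the right of all grey ones, while those of Smurf1, Smurf2 and the brighter Tob1 probe set are mixed with them.

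The inhibitory SMADs and Bambi held the members with the highest differences. Smad6 read 2.42 times as high with BMP-2, Smad7 1.58 times on its brighter probe set and Bambi 1.50 times. Skil followed at 1.34 and 1.30 times on its 2 probe sets. Smurf1, Smurf2 and Tob1 had overlapping groups on every tested probe set, with folds from 0.933 to 1.06. Groups overlapped on 19350 of all 27022 tested probe sets. No member probe set passed an adjusted p of 0.05 (0 of 16 by limma, against 5 of 27022 over all probe sets or 0.0185%). At an unadjusted p under 0.05 there were 6 of the 16, all higher, where 1.91% of all tested probe sets were higher and 1.15% lower at that level. Both treated arrays lay above both untreated arrays for 9 of the 16, or 56.2%, against 15.9% of all tested probe sets. The reverse order was found for 0 of the 16, against 12.5%. The 16 probe sets come from 9 genes, which were chosen with earlier results of these data known, so these shares are not a test. The median difference was 0.20 log2 over the 16 and 0.01 log2 over all tested probe sets. Centring each array on its median changed the split of calls over all probe sets, from 5 higher and 0 lower to 72 higher and 44 lower. The median difference over all tested probe sets went only from 0.0076 to 0.0108 log2. The centred fit kept no variance particular to a probe set.

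Smad6 encodes an inhibitory SMAD that acts mainly on BMP signalling, by binding type I receptors and by competing with SMAD4 for SMAD1. Its single probe set (1422771_at) read 386 and 435 on the treated arrays and 171 and 168 on the untreated ones. Both treated arrays were above both untreated arrays, and the 2 untreated arrays lay close together. The means were 411 ± 34.7 (SD, n = 2) and 170 ± 2.53 (SD, n = 2). The difference was 1.27 log2 (SE 0.17, interval 0.90 to 1.65), or 2.42-fold (1.86 to 3.14), with an adjusted p of 0.062 by limma. Between the 2 arrays of a group Smad6 differed by 0.17 log2 with BMP-2 and by -0.03 log2 without. It ranked 9 by p and 60 by difference among all tested probe sets. At its SE a difference of 1.37 log2 would have been needed to pass. Without untreated replicate 2 the difference was 1.26 log2 (adjusted p = 0.059). Of the alternatives with every array kept, Smad6 passed after median centring, with the filter at the 60th percentile and with the replicate block. The adjusted p by limma was 1.9e-06, 0.048 and 0.037 in that order. The centred fit kept no variance particular to a probe set, so its call says little about Smad6. Smad6 did not pass in the others, with an adjusted p of up to 0.859 (without the intensity trend). In fits without 1 array the difference ran from 1.19 to 1.36 log2.

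The promoter of Smad6 is shown because this gene had the highest difference of the 9. Of the 9 genes, 5 matched a promoter in the RefSeq table (GRCm38.p6): Smad6, Ski, Smurf1, Smurf2 and Tob1. The 250 bases before the start of each were searched on both strands for GGCGCC, a GC-rich SMAD1 and SMAD5 site, for GTCT, the SMAD binding element, and for a joined motif, GGCGCC then any 5 bases then GTCT, the spacing of BMP response elements. GGCGCC was in 9.59%, GTCT in 82.9% and the joined motif in 0.07% of the 32851 windows of that length in the table. A motif match is a description of the letters and not evidence of binding. The Smad6 window, chr9:64022060-64022309 on the minus strand, is given 5′ to 3′ on the gene's strand, with motif matches in capitals. It held 1 GTCT, as its last bases before the start, and 0 GGCGCC.
Smad6: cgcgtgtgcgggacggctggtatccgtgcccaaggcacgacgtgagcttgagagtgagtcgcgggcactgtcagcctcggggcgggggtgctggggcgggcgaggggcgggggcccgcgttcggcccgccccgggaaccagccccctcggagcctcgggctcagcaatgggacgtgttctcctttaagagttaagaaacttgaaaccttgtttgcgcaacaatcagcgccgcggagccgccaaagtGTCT

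Smad7 encodes the other inhibitory SMAD, which recruits ubiquitin ligases to BMP, activin and TGF-beta receptors. Its brighter probe set (1423389_at) read 2956 and 2984 on treated arrays and 1970 and 1803 on untreated ones. The groups were well apart, with means of 2970 ± 20.2 and 1887 ± 118 (SD, n = 2 each). The difference was 0.66 log2 (SE 0.09, interval 0.46 to 0.86), or 1.58-fold (1.37 to 1.81), with an adjusted p of 0.064 by limma. It had rank 11 by p among all tested probe sets, and 0.72 log2 would have been needed to pass. Without untreated replicate 2 it was 0.59 log2 (adjusted p = 0.084). Of the alternatives with all 4 arrays, it passed only with the replicate block. In fits without 1 array the difference ran from 0.59 to 0.72 log2.

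A second Smad7 probe set (1443771_x_at) gave another picture. Its name ends in _x_at, which Affymetrix gives to probe sets with probes that can also match other sequences. With BMP-2 it read 512 (replicate 1) and 1346 (replicate 2), and without BMP-2 480 (replicate 1) and 1156 (replicate 2). Both replicate 2 arrays were high and both replicate 1 arrays low, so the treated and untreated groups overlapped. The mean of the replicate 2 arrays was 1.33 log2 above that of the replicate 1 arrays, and 0.303% of all tested probe sets had a shift as large in either direction. On the brighter Smad7 probe set that shift was -0.06 log2. The treated minus untreated difference of the second probe set was 0.16 log2, with an interval of -0.82 to 1.13 that includes the 0.66 log2 of the first. Without treated replicate 1 it was 0.85 log2 and without treated replicate 2 -0.54 log2, so its sign depended on which array was left out. Without untreated replicate 2 it was 0.79 log2 (adjusted p = 1.00). The mean of both Smad7 probe sets gave 0.41 log2 (adjusted p = 1.00).

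Bambi encodes a membrane protein that resembles a type I receptor without a kinase domain and so acts as a decoy. Its probe set (1423753_at) read 517 and 589 with BMP-2 and 328 and 411 without. The groups did not overlap, though the untreated arrays differed by 0.33 log2 from each other. The means were 553 ± 50.7 and 369 ± 59.1 (SD, n = 2 each), a difference of 0.59 log2 (SE 0.16, interval 0.23 to 0.94) or 1.50-fold (1.18 to 1.92). The adjusted p was 1.00 by limma, the rank by p was 79, and 1.28 log2 would have been needed to pass. Among the 1351 tested probe sets of like signal, one of 20 bins of mean signal, no other had as high a difference. Bambi passed in 0 of 11 alternatives and ran from 0.42 to 0.75 log2, the highest value being that without untreated replicate 2.

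Pmepa1 encodes a membrane-anchored protein that binds receptor-regulated SMADs of the TGF-beta branch and keeps them from the receptor. Its brightest probe set (1422705_at) read 280 and 278 with BMP-2 and 214 and 261 without. The second (1422706_at) read 243 and 292 with BMP-2 and 223 and 201 without. On both probe sets the treated arrays lay above the untreated ones, by a margin smaller than the spread within the more variable group. The differences were 0.24 log2 (interval -0.16 to 0.64) and 0.33 log2 (-0.08 to 0.74), with an adjusted p of 1.00 by limma for each. The third probe set (1452295_at) lay below the signal limit and was not tested, at 28.5 and 26.6 with BMP-2 and 28.4 and 31.5 without. Leaving out untreated replicate 1 gave 0.099 log2 for the first, and leaving out untreated replicate 2 gave 0.38 log2. The second ran from 0.20 log2 without treated replicate 2 to 0.46 log2 without treated replicate 1, and was 0.26 log2 without untreated replicate 2. With the dim probe set in the mean, Pmepa1 differed by 0.15 log2.

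**Figure D2:**
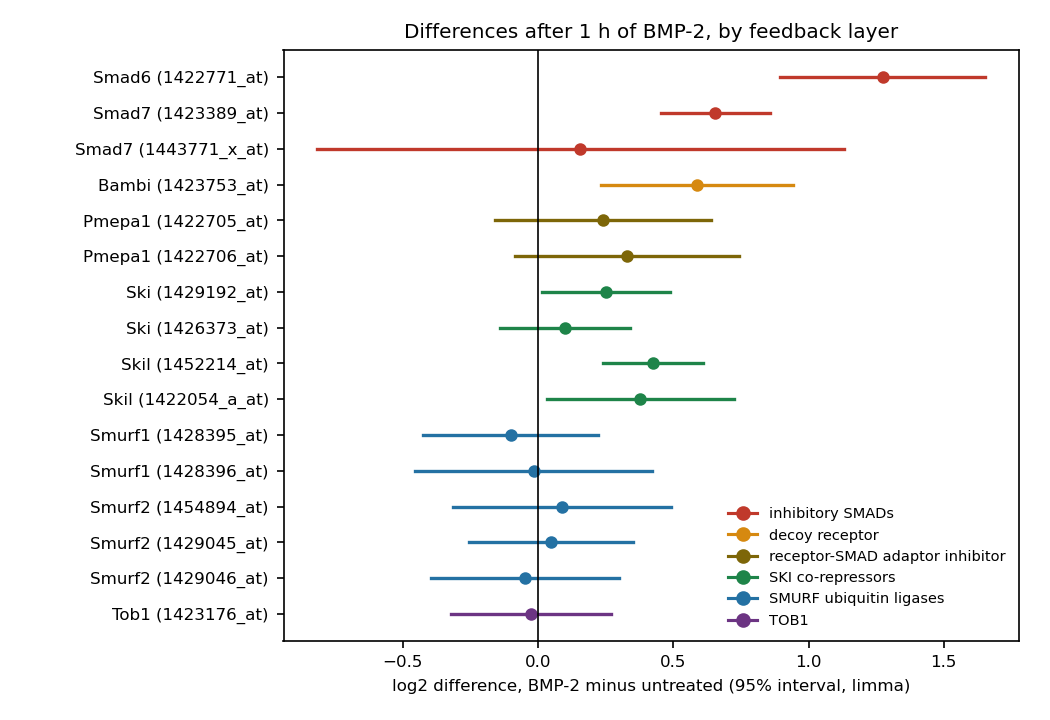
Log2 difference of BMP-2 minus untreated arrays (points) with the 95% interval from limma (bars) for the 16 tested probe sets, coloured by the layer at which the protein acts. The intervals of Smad6, the brighter Smad7 probe set, Bambi, both Skil probe sets and 1 Ski probe set lie above 0, and all 5 SMURF intervals and that of Tob1 span 0.

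The co-repressors Skil and Ski are related proteins that bind SMADs and recruit histone deacetylase complexes to repress SMAD targets. The brighter Skil probe set (1452214_at) read 6229 and 5978 with BMP-2 and 4830 and 4275 without. The difference was 0.43 log2 (SE 0.08, interval 0.24 to 0.61), or 1.34-fold (1.18 to 1.53), with an adjusted p of 0.469 by limma. That was rank 27 by p among all tested probe sets, and 0.67 log2 would have been needed to pass. The second Skil probe set (1422054_a_at) read 407 and 430 against 297 and 349, a difference of 0.38 log2 (interval 0.03 to 0.72, adjusted p = 1.00). On both, each treated array was above each untreated array, and the 2 probe sets gave differences of like size. The brighter one did not pass in any alternative with every array kept. In fits without 1 array its difference ran from 0.34 to 0.51 log2. Without untreated replicate 2 the differences were 0.34 log2 (adjusted p = 0.557) and 0.50 log2 (adjusted p = 1.00).

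Ski gave lower differences than Skil, and the difference between the 2 genes was not tested. Its brighter probe set (1429192_at) read 1170 and 1227 with BMP-2 and 970 and 1042 without. This is 0.25 log2 (SE 0.11, interval 0.02 to 0.49) or 1.19-fold, with an adjusted p of 1.00 by limma. The other (1426373_at) read 967 and 971 against 915 and 895, which is 0.10 log2 (interval -0.14 to 0.34). Both Ski probe sets had their treated arrays above their untreated arrays. They differed by 0.30 and 0.084 log2 without untreated replicate 2. The interval of the brighter one ends at 1.40-fold and that of the other at 1.26-fold.

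Smurf1 and Smurf2 encode HECT-type ubiquitin ligases that act on SMAD1 and SMAD5 and, together with inhibitory SMADs, on the receptors. None of their 5 probe sets had treated arrays all above or all below the untreated arrays. The same held for 19350 of all 27022 tested probe sets, so overlap is the common state. The brighter Smurf1 probe set (1428395_at) read 435 and 417 with BMP-2 and 424 and 492 without, or -0.10 log2 (SE 0.14, interval -0.42 to 0.22). The dimmer one (1428396_at) read 228 and 185 against 202 and 215, or -0.02 log2 (interval -0.45 to 0.42). The Smurf1 values were 0.0078 and 0.029 log2 without untreated replicate 2. The upper ends of the intervals are 1.17-fold and 1.34-fold. A rise of Smurf1 as large as the 2.42-fold of Smad6 lies outside both intervals, and a rise within those ends is not shown to be absent.

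For Smurf2, the brightest probe set (1454894_at) read 1058 and 810 with BMP-2 and 1041 and 728 without, or 0.09 log2 (interval -0.31 to 0.49). Here the replicate 2 arrays were low in both groups, by 0.39 log2 with BMP-2 and 0.52 log2 without. The second (1429045_at) read 457 and 502 against 467 and 459, or 0.05 log2 (interval -0.26 to 0.35). The third (1429046_at) read 330 and 307 against 317 and 343, or -0.05 log2 (interval -0.40 to 0.30). The Smurf2 values without untreated replicate 2 were -0.17, 0.035 and 0.0089 log2. The intervals of the 3 Smurf2 probe sets end at 1.41-fold, 1.28-fold and 1.23-fold, and the adjusted p was 1.00 by limma for each SMURF probe set. The Smurf2 promoter is shown because it held the most motif matches of the 5 windows. A relation between motifs and signals was not tested, and Smad7, Bambi, Skil and Pmepa1 had no window. The Smurf2 window was chr11:106920716-106920965 on the minus strand (GRCm38.p6, 5′ to 3′ on the gene's strand). It held 2 GGCGCC and 3 GTCT, and 0 of the joined motif. Its bases were 82.0% G and C, against 66.8% for Smad6.
Smurf2: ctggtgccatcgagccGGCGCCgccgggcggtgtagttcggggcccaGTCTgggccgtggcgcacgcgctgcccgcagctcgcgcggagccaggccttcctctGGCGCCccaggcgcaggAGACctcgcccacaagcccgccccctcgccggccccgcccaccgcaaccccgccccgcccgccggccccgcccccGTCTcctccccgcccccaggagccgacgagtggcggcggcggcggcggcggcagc
The remaining windows held 1 GGCGCC and 0 GTCT for Ski, 0 and 3 for Smurf1, and 0 and 1 for Tob1. The joined motif was in 0 of the 5 windows. These windows are 66.8% (Smad6) to 87.6% (Ski) G and C.

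Tob1 encodes an antiproliferative protein that binds receptor-regulated SMADs and restrains BMP signalling in bone-forming cells. Its brighter probe set (1423176_at) read 983 and 971 with BMP-2 and 1124 and 879 without. The treated arrays lay between the untreated ones. The difference was -0.02 log2 (SE 0.13, interval -0.32 to 0.27), which spans 0.801-fold to 1.21-fold, with an adjusted p of 1.00 by limma. It was -0.20 log2 without untreated replicate 2. The other Tob1 probe set (1440844_at) read 4.76 and 20.2 with BMP-2 and 40.3 and 59.7 without. Its mean lay below the signal limit, so it was not tested, and signals this dim are noisy on a log scale. With it, the mean of both Tob1 probe sets was -1.17 log2 (adjusted p = 1.00), a value set by the dim probe set.

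**Figure D3:**
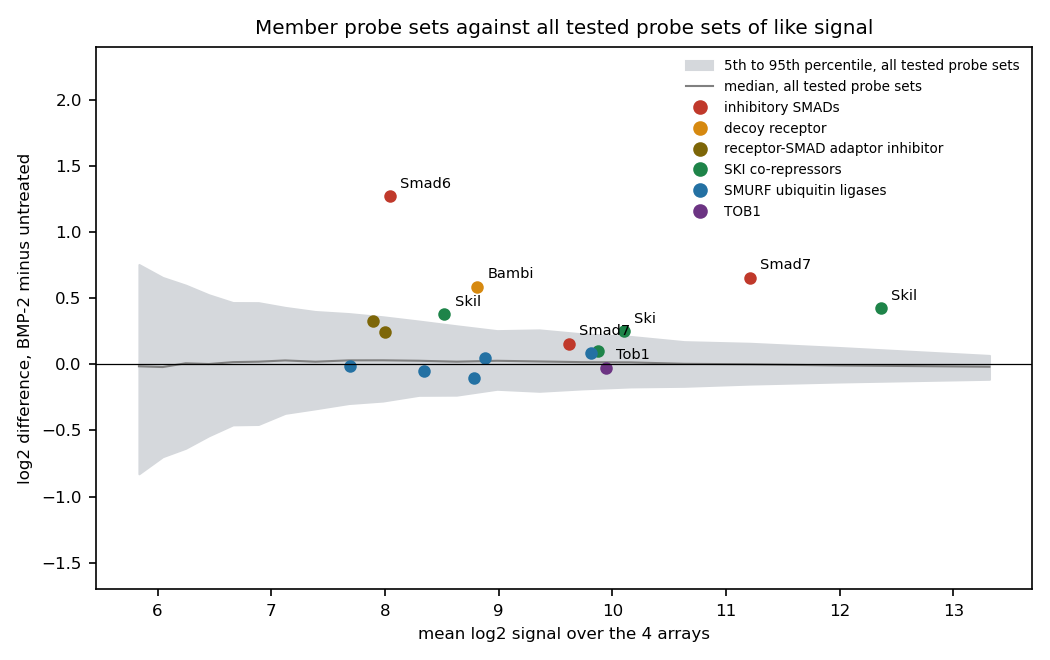
Log2 difference of BMP-2 minus untreated arrays (vertical) against mean log2 signal over the 4 arrays (horizontal) for the 16 tested member probe sets, coloured by layer; the grey band holds the 5th to 95th percentile and the line the median of all tested probe sets in 20 bins of signal. Smad6, the brighter Smad7 probe set, Bambi, both Skil probe sets and the brighter Ski probe set lie above the band, and the SMURF and Tob1 points lie inside it.

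Set against probe sets of like signal, Smad6 lay at percentile 99.9 of the differences in its bin of 1351, the brighter Smad7 probe set at 99.9 and the brighter Skil probe set at 99.8. The dimmer Skil probe set was at 97.6 and the brighter Ski probe set at 96.8. Lower down were the second Smad7 probe set at 88.1 and the dimmer Ski probe set at 76.5. The Pmepa1 probe sets stood at 88.7 and 93.9. The SMURF probe sets ran from 20.5 to 73.9 and Tob1 was at 35.5. These percentiles place the members among other transcripts on the same arrays and are not tests.

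The same arrays showed the response of known BMP targets. Id1, Id2 and Id3, which encode inhibitors of basic helix-loop-helix factors, rose by 1.65, 1.76 and 1.73 log2 (limma adjusted p = 2.0e-05, 3.6e-05 and 3.6e-05), each with both treated arrays above both untreated arrays. Smad6, at 1.27 log2, lay below all 3, but its interval of 0.90 to 1.65 overlapped each of theirs. The difference between Smad6 and these genes was not tested. Of 18 SMAD1 and SMAD5 target genes in a list without the members, 13 were tested, 10 were higher and 3 lower, and Id1, Id2 and Id3 passed. The homeobox gene Msx1 differed by 0.66 log2 (adjusted p = 1.00). The median of the list was 0.36 log2, against 0.01 log2 over all 12976 tested genes, of which 6875 were higher and 6101 lower. For the 9 feedback inhibitors, each on its brightest probe set, 7 were higher and 2 lower, with a median of 0.25 log2.

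Other inhibitors of SMAD signalling were spread on both sides of 0. Of 25 such genes 24 were tested, 11 were higher and 13 lower, none passed, and the median was -0.01 log2. Ctdspl, a phosphatase that acts on SMADs, read 37.5 and 62.8 with BMP-2 and 101 and 78.1 without (-0.87 log2, limma adjusted p = 1.00). Sik1, a kinase, differed by 0.31 log2, the phosphatase gene Ctdsp1 by 0.21 and the co-repressor gene Tgif1 by 0.15, with treated arrays above untreated arrays in each. Among the 8 tested genes whose products remove or oppose the inhibitors, 6 were higher and 2 lower, and none passed. Rnf111, the ubiquitin ligase that degrades SMAD7, SKI and SnoN (the product of Skil), differed by 0.09 log2 (SE 0.10). Usp4, a deubiquitinase that acts on a TGF-beta receptor, differed by -0.28 log2 (limma adjusted p = 1.00).

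Of 16 receptor and SMAD genes 14 were tested, 10 were higher and 4 lower, and none passed. Smad1 read 873 and 825 with BMP-2 and 653 and 647 without (0.38 log2, limma adjusted p = 1.00), and Bmpr1a, a type I BMP receptor, differed by 0.24 log2. Acvr1, another type I receptor, differed by 0.30 log2 with overlapping groups. Of the 8 tested target genes of TGF-beta, activin and Nodal, 5 were higher and 3 lower, and none passed. Lefty2, a secreted Nodal antagonist, differed by 0.55 log2 and Fgf15 by 0.46 log2, while Nodal itself differed by -0.19 log2 (adjusted p = 1.00 for each). Markers of primitive endoderm were higher for 6 of 6 tested genes, none of which passed, with Sox7 at 1.11 log2 (adjusted p = 1.00). The summed signal of these 6 was 722 and 872 with BMP-2 and 605 and 713 without. Of 8 trophectoderm markers 6 were tested, 2 were higher and 4 lower, with sums of 3139 and 3394 against 3173 and 3245. Their part in the differences of the feedback inhibitors was not tested, and in bulk RNA more cells of a type and more RNA per cell cannot be told apart.

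**Figure D4:**
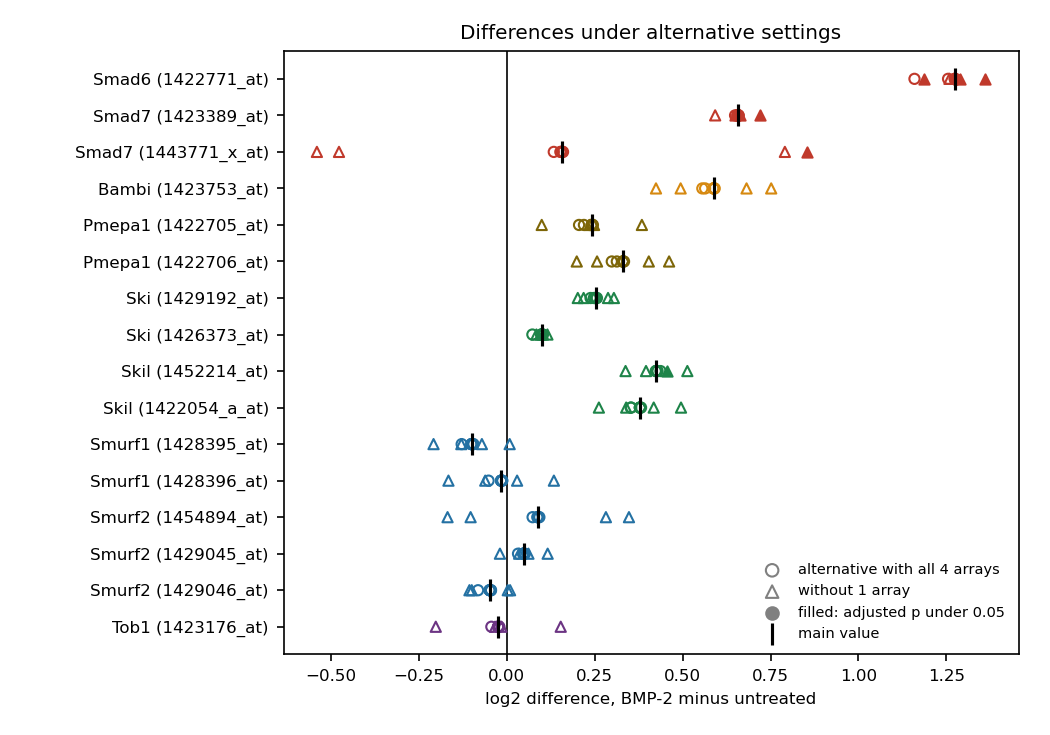
Log2 difference of BMP-2 minus untreated arrays for the 16 tested probe sets in the main setting (black bars) and in 11 alternatives, with circles for alternatives that use all 4 arrays and triangles for fits without 1 array; filled symbols passed an adjusted p of 0.05. Smad6 has 6 filled symbols and the brighter Smad7 probe set 4, and the triangles of the second Smad7 probe set run from -0.54 to 0.85. Fits after median centring and without a treated array kept no variance particular to a probe set, so their filled symbols say little about single probe sets.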

How the data were processed

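The 4 samples gave total RNA that was made into biotin-labelled cRNA for Affymetrix arrays, as the labels' protocols state. MAS5 made the deposited intensity signals, as the submitters' processing notes record; its version is not given in the sources used here. Trimmed means of the deposited intensities were 500.003 on each array, so the values had been scaled within arrays. Detection calls were not used here, and brightness stood in for them.

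Here, signals were put on the log2 scale with no pseudocount, 64 control probe sets were left out, and probe sets above the 40th percentile of mean log2 signal were kept. Groups follow the titles. The test was limma 3.58.1 under R 4.3.3 (lmFit, then eBayes with a trend on signal and no block), two-sided, with Benjamini-Hochberg adjustment, and it was tested on simulated data. Those data drew their variances from the fitted model, so they do not check that model. In them 10% of true differences of 0.5 log2 passed, and 48% of those of 1 log2. With 2 residual degrees of freedom against 7.98 prior ones, the error of a probe set comes mostly from others of like signal. Over 4 arrays a label permutation cannot go below a p of 0.333, and none was run. The difference needed to pass is the one that would have made a probe set the next call. A gene of a list was represented by its brightest kept probe set that names it alone. Named genes were all members, Id1, Id2, Id3, and up to 4 of each list with the smallest p. Pou5f1, Sox2 and the fibroblast markers below the limit were named for their roles. The members and lists were chosen with earlier results of these data known.

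Alternatives tried were normalization by quantiles or by median centring, a pseudocount of 25.4, no filter or one at the 60th percentile, a variance model without the trend, a replicate block, leaving out each array and, per gene, the mean of its probe sets.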

Additional observations from a re-analysis of the deposited data

How the results depend on the processing

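With 2 arrays per group, errors rest on the variance shared between probe sets, and calls moved with how it was modelled. Member probe sets past the threshold numbered 0 in the main setting, 1 after median centring (Smad6), 1 with the filter at the 60th percentile (Smad6) and 2 with the replicate block (Smad6 and the brighter Smad7 probe set, adjusted p = 0.037 each). They numbered 0 to 3 without 1 array, with 0 without untreated replicate 2. They numbered 0 with quantile normalization, with a pseudocount, without a filter and without the intensity trend.

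Over all tested probe sets there were 5 in the main setting, 116 after median centring, 8 with the stricter filter, 11 with the replicate block and 16 to 141 without 1 array. Without the intensity trend there were 0 by limma, with 1023 at an unadjusted p under 0.05. The medians of replicates 1 and 2 were 6.35 and 6.57 log2 with BMP-2 and 6.36 and 6.56 log2 without, a gap by replicate number in both groups. Centring removes this gap by shifting all probe sets of an array by the same amount, bright ones too. Its part in the change of calls was not tested. After centring, and in each fit without a treated array, no variance particular to a probe set was kept (the prior degrees of freedom were infinite), so calls there say little about single probe sets.

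Of 176 values for the 16 member probe sets under alternatives, 165 kept their direction and 11 took the opposite one, all 11 in fits without 1 array. In those fits the second Smad7 probe set ran from -0.54 to 0.85 log2. Smurf1 ran from -0.21 to 0.0078 and from -0.17 to 0.13, Smurf2 from -0.17 to 0.35, -0.020 to 0.12 and -0.11 to 0.0089, and Tob1 from -0.20 to 0.15. Pmepa1 kept its direction and ran from 0.099 to 0.38 and from 0.20 to 0.46. The cause was not tested.

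The replicate numbers are shared by the labels of both groups, which do not say what a number stands for. The differences between replicates 1 and 2 in the 2 groups correlated at 0.15 across 27022 probe sets, which are not independent. This does not establish a pairing, and the main setting has no block.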
